A study of Homo sapiens with 12 samples.

Results

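The first hour of actinomycin D was described from 6 of the 12 RNA-seq libraries of a time course in shA673-1c cells. The 3 libraries labelled 0 h were compared with the 3 labelled 1 h, paired by the replicate number in the labels, over every gene with enough counts to test. shA673-1c is an inducible derivative of A673, a cell line from an Ewing sarcoma, the bone and soft tissue tumour driven by the EWS::FLI1 fusion, and doxycycline switches on a short hairpin RNA against that fusion. Cells of both time points had been grown with 1 µg/ml doxycycline for 4 days, under blasticidin and zeocin, so the hairpin against the fusion was induced, per the labels, at 0 h as well as at 1 h. They then received 5 µM actinomycin D for 0 or 1 h. Each time point held 3 biological replicates of this 1 line, seeded in wells, and nothing in the labels says whether the wells came from separate passages. Polyadenylated RNA was sequenced with a stranded kit.

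Actinomycin D binds DNA and stops RNA polymerases. Once synthesis has stopped, the amount of each mRNA follows its own decay, so an early time point singles out the shortest-lived messages. These are known to include the inducible regulators of growth and stress, many of which carry AU-rich elements in the 3′ untranslated region (UTR) that recruit decay factors such as the protein made from ZFP36. A library shows proportions only, so a message that decays more slowly than the average can appear to rise although none is being made. Whether the rises reported below are of this kind was not tested.

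The table listed 26334 genes, of which 12775 were tested, and the 6 libraries held between 9381855 and 10929000 counts. The first principal component of the 6 libraries held 44.7% of the variance and set replicate 3 apart, while the second held 25.2% and separated 0 h from 1 h. Values are given as CPM, counts relative to the library total as scaled by edgeR's TMM method, unless counts are named, with SD over the 3 replicates of a time point. Of 11 Ewing sarcoma markers, 9 were detected. VIM was near 6100 CPM of raw totals, EWSR1 near 254, FLI1 near 18.2, STEAP1 near 17 and LIPI near 8.07. The other markers were low, with BCL11B near 4.23, NR0B1 near 4.21 and NKX2-2 near 1.8. PAX7, near 0.372, did not pass the filter on low counts, and CCK was at 0 in all 6 libraries. CD99, the usual surface marker of the tumour, was listed at 0 in every library. It was among the 17 of 18 pseudoautosomal genes in the table that were at 0 throughout, so its 0 says nothing about the cells. Of 21 markers of blood, endothelium, epithelium, liver, muscle and neurons, 4 were at 0, and their summed level was 32.1 to 46 CPM of raw totals at 0 h and 26.9 to 43.9 at 1 h. Of these, HBB was the highest (13.1 to 27 CPM of raw totals). No doxycycline-free library was analysed here, so the knockdown itself was not measured.

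In 1 h, 802 genes fell and 322 rose relative to the rest of the library, 6.28% and 2.52% of the genes tested (edgeR's quasi-likelihood test with the replicate number as a block, Benjamini-Hochberg adjusted p under 0.05). The 802 genes together took 3.93% to 4.19% of a library's counts at 0 h and 3.17% to 3.26% at 1 h. As they were called from these same libraries, a lower share at 1 h follows from the choice and only its size is described. The median log2 change of all tested genes was -0.02, and 5% of genes lay below -0.43 and 5% above 0.31. The direction was shared by all 3 pairs for 800 of the 802 genes that fell and for 314 of the 322 that rose. The calls rest on these same pairs, so a shared direction was favoured by the choice of genes. The libraries of the 2 times did not overlap in 627 of the 802 and 203 of the 322, against 1789 (14%) of all tested genes. A lack of overlap, given below for single genes, was likewise favoured by that choice and is description only. Past 2-fold there were 81 falls (0.634%) and 17 rises (0.133%). Of those 81, 33 had a mean of at least 5 CPM over the 6 libraries, and of the 17 only IGFN1 did. Of the 81, 24 passed the filter on low counts only with the 0 h libraries, so those genes had to be lower later, against 26 of all 802.

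These counts depended on the pairing and on some of the libraries. Without the replicate block 148 genes fell and 22 rose, all of them among the blocked calls. Without replicate 2 the counts were 319 and 133, and without replicate 3 they were 518 and 70, while without replicate 1 they were 709 and 320. Without a single 0 h library they were 489 and 201 (replicate 1), 422 and 204 (replicate 2) or 748 and 201 (replicate 3). Without the 1 h library of replicate 3 alone they were 454 and 97, and without that of replicate 1 or 2 they moved by less than 1.5 times. Among the genes called higher, the median log2 change of CPM + 0.5 was 0.23 and 0.27 in pairs 1 and 2 and 0.38 in pair 3. Over all tested genes, 65 rose by more than 1 on that scale in pair 3, against 23 and 29 in the other pairs.

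**Figure D1:**
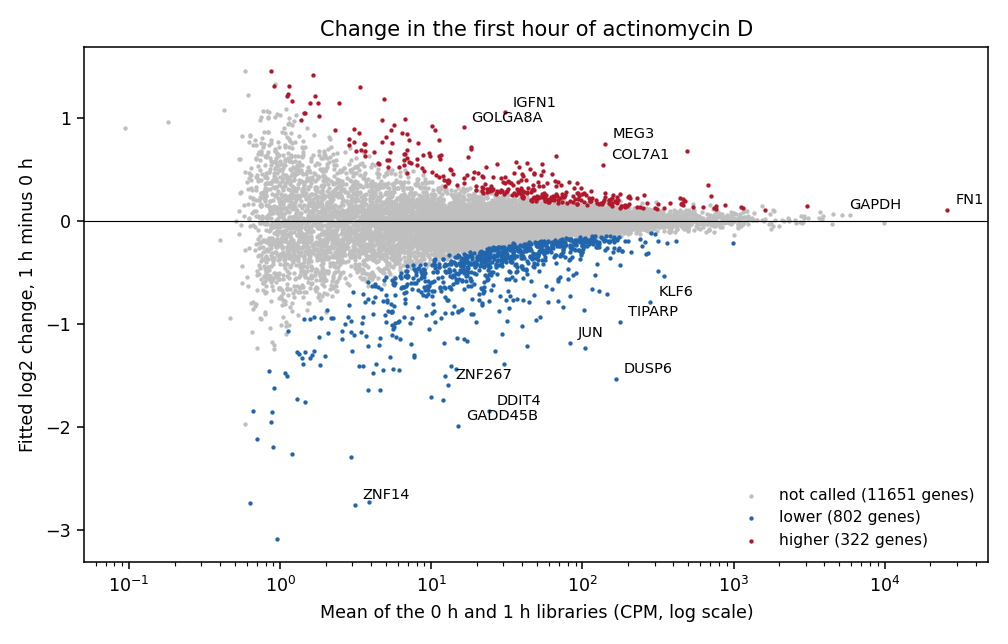
Fitted log2 change from 0 h to 1 h (vertical axis) against the mean CPM of the 6 libraries (horizontal axis, log scale), 1 point per tested gene. The 802 genes called lower (blue) reach below -2, while of the 322 called higher (red) 17 pass 1, nearly all of them at under 5 CPM.

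Among the 20 largest falls at a mean of at least 5 CPM, 9 were zinc finger genes, given further on, and most of the others were genes that cells switch on under stress or growth factor signals. GADD45B, which regulates stress kinases, stood at 22.4, 28.3 and 21.4 CPM at 0 h and at 6.31, 7.92 and 4.09 CPM at 1 h in replicates 1, 2 and 3. The times did not overlap and replicate 3 fell furthest. The fall was 3.97-fold, or -1.99 on the log2 scale (SE 0.15, edgeR adjusted p = 2.31e-10). In DDIT4, which restrains mTORC1, the libraries went from 34.6, 31.6 and 47 CPM to 10.3, 7.83 and 13.4 CPM, with replicate 3 the highest at both times and a log2 change of -1.84 (SE 0.10, edgeR adjusted p = 4.91e-14). DUSP6, the phosphatase that switches off ERK, went from 243, 259 and 244 CPM to 84, 84.3 and 89.3 CPM. The libraries of each time lay close together, and the log2 change of -1.53 had an SE of 0.05 (edgeR adjusted p = 1.45e-18). TRIB1, a pseudokinase that leads C/EBP proteins to degradation, fell by 1.73 on the log2 scale from 18.3 ± 1.82 to 5.53 ± 1.10 CPM.

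DDIT3, the stress transcription factor CHOP, went from 24.2, 20.5 and 19.1 CPM to 9.93, 8.2 and 5.56 CPM, a log2 change of -1.44 with no overlap. DUSP1, a phosphatase of JNK and p38, went from 50.6, 47.1 and 33.7 CPM to 16.2, 18.1 and 15.4 CPM, a log2 change of -1.39. SOCS3, a feedback inhibitor of cytokine receptors, went from 36.7, 37.6 and 37.4 CPM to 14.6, 17.3 and 14.7 CPM, a log2 change of -1.26. In each of these 3 genes the highest 1 h library lay below the lowest 0 h library. IER3, an immediate early gene, went from 131, 149 and 149 CPM to 47.2, 54 and 88.7 CPM. Its fall was smallest in replicate 3, and its log2 change of -1.24 (SE 0.15) was called with the block (edgeR adjusted p = 1.48e-06) but not without it (adjusted p = 0.343). ARRDC3, an arrestin-like adaptor, and NUAK2, an AMPK-related kinase, fell by 1.21 and 1.19. The transcript LOC284454 fell by 1.71 on the same scale.

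**Figure D2:**
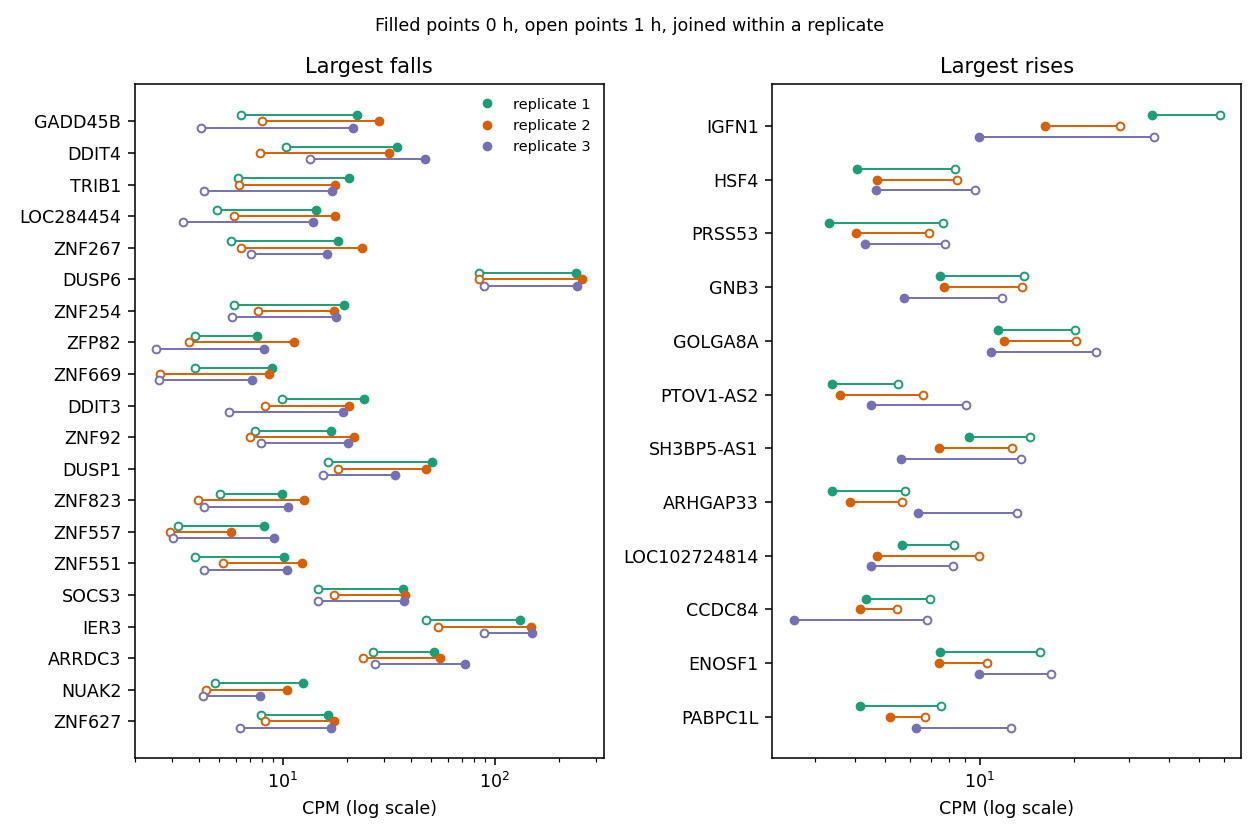
CPM at 0 h (filled) and 1 h (open), joined within replicates 1, 2 and 3, for the 20 largest falls (left) and 12 largest rises (right) among called genes with a mean of at least 5 CPM and 1 direction in all 3 pairs, on log axes. Every line on the left runs to lower values, and the rises on the right are shorter, with IGFN1 spread widely between replicates.

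To show the kind of element named above, the first TATTTAT of the 3′ UTR is given for 6 genes that fell, in capitals within 25 bases of the representative GENCODE 29 transcript, 5′ to 3′.
DUSP1: gctggtcctTATTTATttaacttca
SOCS3: ctttgcacaTATTTATatttatatt
IER3: cctaattaaTATTTATatgtattta
NFKBIA: cacattttaTATTTATtgtgcttcg
TIPARP: tgaggattcTATTTATttatttacg
ZNF267: agcaaatatTATTTATataattcag
DUSP1 held 3 such heptamers in a 3′ UTR of 672 bases, and IER3 held 4 in 737. GADD45B and DDIT4 held no TATTTAT and no ATTTA at all in 658 and 848 bases, so the heptamer was not shared by all genes that fell.

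Across genes, TATTTAT (read on the mRNA strand, each match also containing ATTTA) was found in the 3′ UTR of 47.1% of the genes that fell, 22.3% of those that rose and 34.2% of the 11916 tested genes with a 3′ UTR of at least 20 bases. Among genes that fell by over 2-fold the share was 35.5% (22 of 62), near that of all tested genes. Longer UTRs hold more of any motif, and the median 3′ UTR was 1872 bases in genes that fell, 752 in genes that rose and 1179 in all. In genes that fell by over 2-fold it was 880 bases. Within 4 equal bins of UTR length, from short to long, the shares among genes that fell were 12.3%, 25.2%, 46.8% and 68.9%, against 8.83%, 21.8%, 39.7% and 66.6% of all genes of that bin. The difference within a bin was thus smaller than over all lengths. By number of heptamers, 5.07% of genes with none fell, 7.17% with 1, 11.4% with 2 and 9.92% with 3 or more. These groups also differed in length, with median 3′ UTRs of 769, 1838, 2841 and 4490 bases. By UTR length alone, 2.45%, 5.47%, 7.75% and 9.5% of the genes in the 4 bins fell. The Pumilio motif TGTANATA was found in 47.5% of genes that fell, 16.7% that rose and 28.6% of all, shares that were not split by UTR length. These are descriptions of sequence with no test.

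Immediate early and feedback genes fell in many members. Their counts, and those of the lists below, are to be read against all tested genes, of which 6.28% fell and 2.52% rose. Of 13 AP-1 and small MAF subunits 5 fell (2 without the replicate block), of 15 EGR, IER, SRF-linked and NR4A genes 10 fell (5 without), and of 16 dual specificity phosphatases, Sprouty and SPRED inhibitors 9 fell (2 without). JUN, the core AP-1 subunit, went from 117, 125 and 104 CPM to 49.9, 59.8 and 42.9 CPM, with no overlap and a log2 change of -1.19 (SE 0.06, edgeR adjusted p = 8.24e-14). JUNB fell by 0.88 and FOSL2 by 0.38 on the log2 scale. FOS itself was at 1.32, 2.07 and 2.56 CPM at 0 h and 0.414, 0.471 and 0.348 CPM at 1 h, a log2 change of -2.26, and it was picked out after its values were seen. IER2 went from 55, 56.6 and 49.5 CPM to 25.5, 30.1 and 23.8 CPM, a log2 change of -1.02. PHLDA1 and IFRD1 fell by 0.48 and 0.63. In the phosphatase list DUSP5 fell by 0.53 on the log2 scale, although its replicates overlapped (134, 113 and 59.3 CPM at 0 h, 90.1, 80.3 and 40.9 CPM at 1 h). Replicate 3 was the lowest at both times.

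Stress regulators fell together with them. Of 24 such genes 15 fell (6 without the block), and every member had a negative log2 change, with a median of -0.31. The list counts GADD45B, DDIT4, TRIB1, DDIT3 and ARRDC3, given above, and GADD45A, which fell by 0.38. Of 7 SOCS genes 4 fell (2 without the block): besides SOCS3, SOCS5 fell from 56 ± 7.23 to 32.4 ± 1.09 CPM, and SOCS1 by 0.99 and SOCS6 by 0.37 on the log2 scale. Of 22 NF-kappa-B subunits, inhibitors and linked cytokines only 4 fell (1 without the block). NFKBIA, the inhibitor that NF-kappa-B itself induces, went from 36.2, 41.5 and 41.7 CPM to 16.9, 17.7 and 21 CPM, a log2 change of -1.10 (SE 0.09, edgeR adjusted p = 8.41e-10). TNFAIP3 and LIF fell by 0.49 and 0.35 and BIRC2 by 0.18, and the calls for TNFAIP3 and LIF were lost without replicate 2 (edgeR adjusted p = 0.19 and 0.421).

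**Figure D3:**
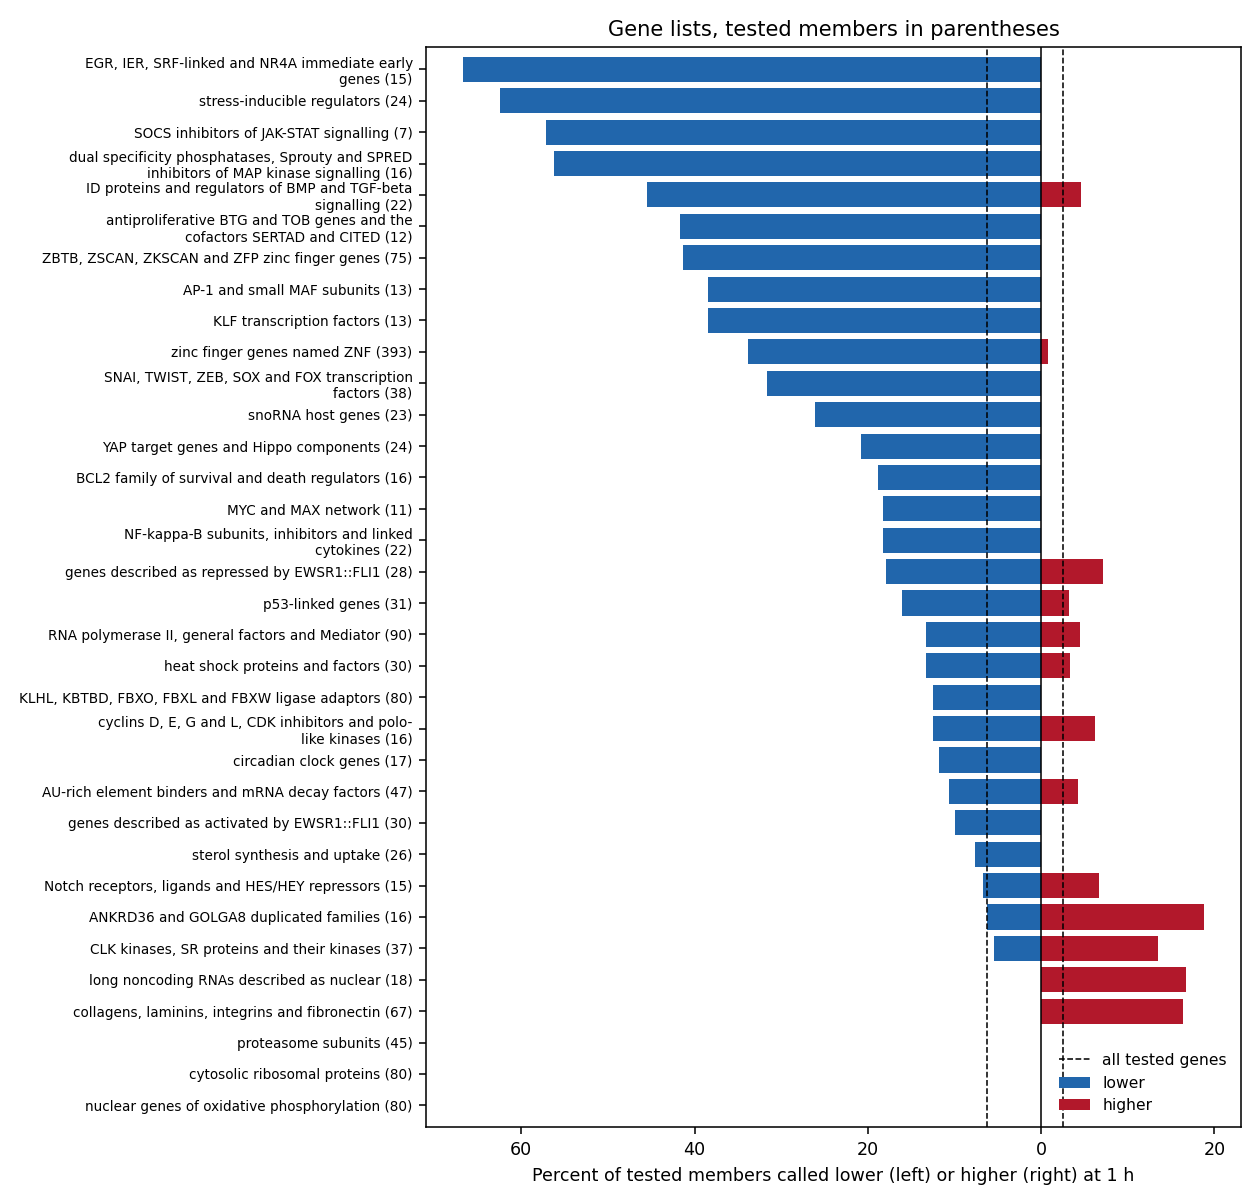
Percent of the tested members of each gene list called lower (bars to the left) or higher (bars to the right) at 1 h, with the number of tested members in parentheses and dashed lines at 6.28% and 2.52%, the shares over all tested genes. Lists of immediate early, stress and feedback genes reach furthest left, and proteasome, ribosomal protein and respiratory chain lists have no bar.

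Some transcription regulators of development and of growth fell. MYC, the growth regulator, went from 94, 94.4 and 72.3 CPM to 55.3, 58.8 and 38.4 CPM, with replicate 3 lowest at both times, no overlap and a log2 change of -0.78 (SE 0.06, edgeR adjusted p = 3.3e-10). Of the 11 genes of its network only MGA (-0.37) fell as well. Of 13 KLF factors 5 fell (1 without the block). KLF6 went from 380, 403 and 289 CPM to 221, 222 and 177 CPM, a log2 change of -0.79, and KLF7, KLF10, KLF3 and KLF2 changed by -0.44, -0.59, -0.22 and -0.56. Of 22 ID proteins and regulators of BMP and TGF-beta signalling 10 fell (1 without the block), led by ID1 at -1.14, from 20.4 ± 2.84 to 9.29 ± 1.26 CPM. SMAD3 was the 1 member that rose, by 0.14. HES1, the repressor induced by Notch, was the only 1 of 15 Notch genes to fall, from 20.6, 25.8 and 25.1 CPM to 9.52, 11.9 and 10.5 CPM, a log2 change of -1.16. RFNG, an enzyme that modifies Notch, rose by 0.30. With 1 of 15 in each direction (6.67%), the falls in the Notch list lay near the 6.28% of all tested genes.

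Of 38 SNAI, TWIST, ZEB, SOX and FOX factors 12 fell, but 1 without the block and 3 without replicate 2. SNAI1 fell by 0.61 on the log2 scale, SOX4 by 0.49 and SOX9 by 0.35. Of 24 YAP targets and Hippo components 5 fell, and edgeR called none without the block (3 at an unadjusted p under 0.05), nor did DESeq2. CYR61 went from 448, 459 and 324 CPM to 296, 316 and 234 CPM, a log2 change of -0.54 that was lost without the block (edgeR adjusted p = 0.107). The times did not overlap, but replicate 3 at 0 h was close to replicate 2 at 1 h. Of 12 BTG, TOB, SERTAD and CITED genes, which restrain proliferation or bind the CBP coactivator, 5 fell (2 without the block), among them SERTAD3 (-0.88), CITED2 (-0.66) and BTG1 (-0.56). TIPARP, an ADP-ribosyltransferase induced by the aryl hydrocarbon receptor, went from 242, 253 and 208 CPM to 134, 113 and 109 CPM, a log2 change of -0.98 (SE 0.05, edgeR adjusted p = 8.24e-14). SLC38A2, an amino acid transporter, also lost many reads, going from 1059 ± 31.4 to 912 ± 41.7 CPM in a 1.16-fold fall.

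Survival and cell cycle regulators moved in a few members each, to be read against the 6.28% of all tested genes that fell and the 2.52% that rose. MCL1, the BCL2 relative known for its short-lived protein, went from 136, 145 and 116 CPM to 76.2, 70.2 and 71.7 CPM. The 1 h libraries lay close together, and the log2 change was -0.86 (SE 0.06, edgeR adjusted p = 2.75e-11). Of the 16 BCL2 family genes BMF (-0.35) and BCL2L11 (-0.45) also fell, and both calls were lost without the block and without replicate 2. Of 16 genes in the cyclin and polo-like kinase list 2 fell and 1 rose (1 and 0 without the block). PLK2, a polo-like kinase, fell by 0.68 and CDKN1B, the inhibitor p27, by 0.52, while cyclin L2 (CCNL2) rose by 0.38. The calls for CDKN1B and CCNL2 were lost without the block (edgeR adjusted p = 0.609 and 0.0934). That for CDKN1B was also lost without replicate 2 (edgeR adjusted p = 0.0644). Of 31 p53-linked genes 5 fell and MDM4, an inhibitor of p53, rose from 34.5 ± 1.57 to 46.5 ± 2 CPM (log2 change 0.43, edgeR adjusted p = 3.6e-05). Without the block 1 of the 31 fell, and without replicate 2 it was 2. Of the 17 clock genes BHLHE40 (-0.80) and NFIL3 (-0.50) fell. Among 47 AU-rich element binders and decay factors 5 fell (10.6%) and 2 rose (4.26%). The decay factor gene ZFP36 changed by -0.99, ZFP36L1 by -0.30 and the deadenylase gene PAN2 by 0.47. Without replicate 2 the decay list had 1 lower and 1 higher member.

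C2H2 zinc finger genes were the most numerous group among the falls. Many encode repressors with a KRAB domain that bind transposable elements. Of 393 tested genes named ZNF 133 fell (33.8%, against 6.28% of all tested genes) and 3 rose (0.763%, against 2.52%). By over 2-fold 30 fell, and the median log2 change of the 393 was -0.31 against -0.02 over all genes. They thus gave 30 of the 81 falls of over 2-fold. Without the block 43 fell and 1 rose, and without replicate 2 the counts were 64 and 2. ZNF267 went from 18.1, 23.7 and 16.2 CPM to 5.69, 6.32 and 7.04 CPM, with no overlap and a log2 change of -1.59 (SE 0.12, edgeR adjusted p = 2.31e-10). ZNF254 went from 19.4, 17.4 and 17.7 CPM to 5.9, 7.64 and 5.74 CPM, a log2 change of -1.50 (SE 0.13). ZNF669 and ZNF92 followed with -1.44 and -1.40, ZNF823 and ZNF557 with -1.32 each, ZNF551 with -1.30 and ZNF627 with -1.19.

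Less steep falls were seen in ZNF217, an amplified oncogene in several carcinomas, which went from 74.5, 66.4 and 66.7 CPM to 36.4, 35 and 37.1 CPM (log2 change -0.93, SE 0.07), and in ZNF281 (-0.98). ZNF14 and ZNF564 had log2 changes of -2.75 and -2.73, but at a mean of 5.39 and 6.74 CPM at 0 h and 0.813 and 1.02 CPM at 1 h they lay below the limit on level for the largest falls, and they were picked out after their values were seen. Of 75 tested ZBTB, ZSCAN, ZKSCAN and ZFP genes 31 fell (8 without the block, 9 without replicate 2). The symbol rule also took in the decay factor gene ZFP36, which is not of this type. ZFP82 fell by 1.45, ZSCAN12 by 0.94 and ZBTB39 by 0.64. The TATTTAT share was 38.0% among ZNF genes that fell and 34.3% among ZNF genes that were not called, so the heptamer separated them little. Genes of this family are similar in sequence, and how shared reads were counted was not given in the sources used here.

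Genes with few exons fell more often. Of protein-coding genes with a single exon in the representative transcript 28.3% fell (67 of 237), of those with 2 exons 18.6%, with 3 to 5 exons 11.5%, with 6 to 10 exons 4.73%, with 11 to 20 exons 2.97% and with over 20 exons 2.28%. Rises ran the other way, from 0.422% in single-exon genes to 6.08% in genes with over 20 exons. The falls kept this order with the zinc finger lists left out (28.6%, 17.5%, 7.87%, 3.73%, 2.97% and 2.29%). GC content moved with the calls too. The median transcript GC content was 45.1% in genes that fell, 57.9% in genes that rose and 48.7% in all. The median log2 change of the genes in the highest of 4 equal bins of GC, computed from CPM + 0.5, was 0.00463 in pair 1, 0.101 in pair 2 and 0.0153 in pair 3. With the trend over GC content removed in each library, a fit added after the data were seen, 877 genes fell and 393 rose, of which 730 and 264 were among the calls above.

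**Figure D4:**
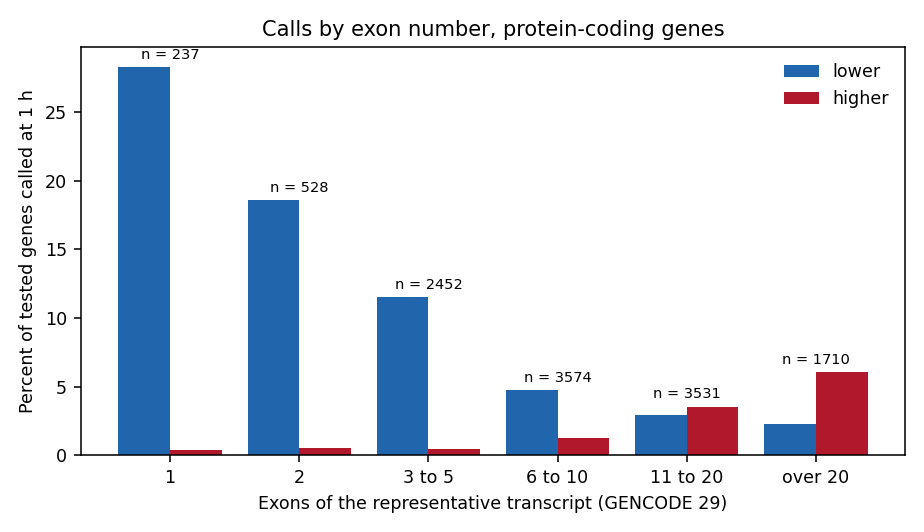
Percent of tested protein-coding genes called lower (blue) or higher (red) at 1 h, by the number of exons of the representative GENCODE 29 transcript, with the number of genes above each pair of bars. The lower share goes from 28.3% at 1 exon to 2.28% at over 20 exons, and the higher share from 0.422% to 6.08%.

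Small nucleolar RNAs, which guide the modification of ribosomal RNA and are mostly cut out of introns, were measured at low counts. This group was picked out after its values were seen. Of 38 tested symbols (of 395 in the table) 14 fell, and 4 without the block. Of those 14, 10 passed the filter on low counts only with the 0 h libraries and so had to be lower at 1 h or later, and the count is given as a description only. The summed counts of all 38 tested symbols were 683, 793 and 709 at 0 h and 419, 506 and 486 at 1 h. Of the 38, 18 passed the filter only with the 0 h libraries and 6 only with the 1 h libraries, so part of this fall can come from the filter. SNORD28 had 16, 22 and 17 counts at 0 h and 3, 3 and 0 at 1 h, SNORD25 had 23, 25 and 25 and then 7, 13 and 1, and SNORD30 had 11, 11 and 12 and then 2, 5 and 2. All 3 lie in introns of SNHG1, whose own counts fell by only 0.24 on the log2 scale, while SNORD22 of the same host had a log2 change of -0.14 (edgeR adjusted p = 0.783). The sequences of a pair of them are shown from GENCODE 29 as DNA, 5′ to 3′, with the C box (TGATGA) and D box (CTGA) that mark this class in capitals.
SNORD25: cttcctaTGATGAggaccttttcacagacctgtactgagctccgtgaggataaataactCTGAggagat
SNORD30: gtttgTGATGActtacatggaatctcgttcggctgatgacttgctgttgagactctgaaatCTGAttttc
At 69 and 70 bases both are shorter than usual mRNA fragments, and counts in their interval can come from unspliced host RNA, which cannot be told apart from the small RNA here. Of 23 tested host genes 6 fell (1 without the block), among them SNHG8 from 31.8 ± 0.917 to 22.3 ± 1.32 CPM (-0.51), SNHG15 (-0.63) and SNHG3 (-0.40). The host GAS5 had a log2 change of -0.08 (edgeR adjusted p = 0.415).

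Rises were smaller and depended more on replicate 3. IGFN1, an immunoglobulin-like muscle gene, went from 35.3, 16.2 and 9.96 CPM to 58.3, 28.1 and 36 CPM. The times overlapped, and its log2 change of 1.05 (SE 0.12, edgeR adjusted p = 3.51e-07) was not called without the block (adjusted p = 0.604). HSF4, a heat shock factor, went from 4.06, 4.71 and 4.67 CPM to 8.38, 8.49 and 9.65 CPM, and GNB3, a G protein subunit, from 7.46, 7.73 and 5.73 CPM to 13.9, 13.7 and 11.8 CPM. Both were free of overlap, with log2 changes of 0.98 and 0.92. PRSS53 (0.93), PTOV1-AS2 (0.88), SH3BP5-AS1 (0.88), ARHGAP33 (0.85), LOC102724814 (0.84), CCDC84 (0.81), ENOSF1 (0.78) and PABPC1L (0.78) followed. The calls for ARHGAP33, CCDC84 and PABPC1L were lost without replicate 3 (edgeR adjusted p = 0.108, 0.184 and 0.0818).

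Long noncoding and duplicated genes were among the rises, to be read against the 2.52% of all genes. MEG3, an imprinted long noncoding RNA, went from 133, 98.3 and 85.8 CPM to 190, 147 and 190 CPM. The lowest 1 h library lay above the highest 0 h library, and the log2 change was 0.75 (SE 0.07, edgeR adjusted p = 1.43e-08; adjusted p = 0.109 without the block). Of 18 long noncoding RNAs described as nuclear, MEG3, LINC00342 (0.63) and GABPB1-AS1 (0.56) rose, none of them called by edgeR without the block (4 members at an unadjusted p under 0.05, and 2 called in DESeq2), and the last 2 were lost without replicate 3 (edgeR adjusted p = 0.298 and 0.31). Of 16 ANKRD36, GOLGA8 and similar duplicated genes GOLGA8A, GOLGA8B and NPIPB15 rose and NBPF1 fell (-0.17). GOLGA8A went from 11.4, 12 and 10.8 CPM to 20.1, 20.3 and 23.6 CPM, with no overlap and a log2 change of 0.90, and GOLGA8B changed by 0.72. Reads can be shared between these near-identical copies. For the antisense genes SH3BP5-AS1, PTOV1-AS2 and GABPB1-AS1, reads of the opposite strand cannot be told apart, since the strand setting of the counting was not given in the sources used here.

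Splicing regulators and matrix genes also rose in part. Of 37 CLK kinases, SR proteins and related genes 5 rose and 2 fell. Without the block edgeR called none (4 higher and 3 lower at an unadjusted p under 0.05), while DESeq2 called 5 and 2. The SR-related genes SRRM2 and PNISR went from 597 ± 33.7 to 760 ± 94.9 CPM and from 53 ± 2.65 to 72.6 ± 12.6 CPM, with replicate 3 highest at 1 h in both, and CLK1, which phosphorylates SR proteins, fell by 0.49. Of 67 collagens, laminins, integrins and fibronectin 11 rose, 4 without replicate 3, 8 in DESeq2 and none in edgeR without the block (5 at an unadjusted p under 0.05). COL7A1 went from 84.1, 110 and 139 CPM to 112, 161 and 214 CPM, a log2 change of 0.54 in which every pair rose although the times overlapped. FN1, fibronectin, rose by 0.11 from 25088 ± 2423 to 26972 ± 2078 CPM, a call lost without replicate 1 or 2 (edgeR adjusted p = 0.0656 and 0.109). Outside these lists LRP1, an endocytic receptor, rose by 0.24.

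Housekeeping lists held no call in this hour under these tests. Of 80 cytosolic ribosomal protein genes, 80 nuclear genes of oxidative phosphorylation and 45 proteasome subunits none was called by edgeR with or without the block, or by DESeq2. At an unadjusted p under 0.05, 2 ribosomal genes were lower and 2 higher, 1 respiratory gene was lower and 5 higher, and 2 proteasome genes were lower and 1 higher. Their median log2 changes were -0.02, -0.01 and -0.01. Without replicate 2, 2 ribosomal genes were called lower, and with the GC trend removed 1 ribosomal and 1 proteasome gene were lower and 1 of each higher. GAPDH and ACTB had log2 changes of 0.05 and 0.07 (edgeR adjusted p = 0.318 and 0.153).

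Among genes linked to the fusion, FLI1, whose reads include the fusion transcript, went from 19.8, 19.9 and 21.7 CPM to 19, 14.8 and 10.4 CPM. Replicate 1 hardly moved and replicate 3 moved most. Its log2 change of -0.50 (SE 0.12, edgeR adjusted p = 0.00663) was lost without the block (adjusted p = 0.373), without replicate 2 (adjusted p = 0.0932) and without replicate 3 (adjusted p = 0.338). Of 30 genes described as activated by EWSR1::FLI1, ID2 (-0.44), SOX2 (-0.64) and E2F3 (-0.27) fell, which is 10% against 6.28% of all tested genes. Without the block edgeR called none (1 lower at an unadjusted p under 0.05, and 1 in DESeq2 with the block), nor did it without replicate 2. Of 28 described as repressed 5 fell and 2 rose (17.9% and 7.14%, against 6.28% and 2.52% of all tested genes). PHLDA1, CYR61, SPRY1, FOXO1 and CTGF fell, and FN1 and TNC rose. Without the block 1 fell and 0 rose, and without replicate 2 it was 3 and 0. The call for TNC was lost when any 1 replicate was left out (edgeR adjusted p = 0.2, 0.286 and 0.0876). EWSR1 had a log2 change of 0.11 (edgeR adjusted p = 0.0826). Of 90 genes listed with RNA polymerase II, which the drug stalls, its general factors and Mediator, 12 fell and 4 rose (13.3% and 4.44%). MED26 changed by -0.94, MED9 by -0.69 and BRD2, a listed bromodomain protein that is not a subunit of these, by -0.32. Without the block 3 fell and 0 rose, and without replicate 2 it was 4 and 0.

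The first hour was set against the second by testing the difference of the log2 changes, (2 h minus 1 h) minus (1 h minus 0 h), in which the 1 h libraries enter both. With the block, 420 genes (3.29%) fell more in the second hour and 303 (2.37%) more in the first. This split depended on the scaling, at 654 and 85 with library totals and 1174 and 7 with scaling to the ribosomal protein genes. It depended on single replicates too, at 50 and 4 without replicate 3. Without the block edgeR called 0 and 0 (551 and 358 at an unadjusted p under 0.05), and DESeq2 called 120 and 163.

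NFKBIA, the largest of the differences named here, went on from 16.9, 17.7 and 21 CPM at 1 h to 2.15, 3.34 and 2.13 CPM at 2 h, a difference of -1.77 between the hours (SE 0.23, edgeR adjusted p = 3.07e-05). PLK2 went from 110, 105 and 81.2 CPM at 1 h to 23.8, 20.4 and 25.1 CPM at 2 h, a difference of -1.40 (SE 0.14). MYC went from 55.3, 58.8 and 38.4 CPM to 15, 12.5 and 10.4 CPM (-1.22, SE 0.13), and TIPARP from 134, 113 and 109 CPM to 32.4, 31.3 and 30.8 CPM (-0.94, SE 0.10). In each of these 4 genes every pair had also fallen in the first hour. The opposite pattern was seen in ZNF267, which held 5.69, 6.32 and 7.04 CPM at 1 h and 4.8, 6.27 and 4.45 CPM at 2 h (difference 1.28, SE 0.25, edgeR adjusted p = 0.00416). ZNF254 and LOC284454 differed in the same direction, both by 1.01. GADD45B, with a difference of 0.80 (adjusted p = 0.189), and DDIT4, with -0.19 (adjusted p = 0.681), were not called.

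**Figure D5:**
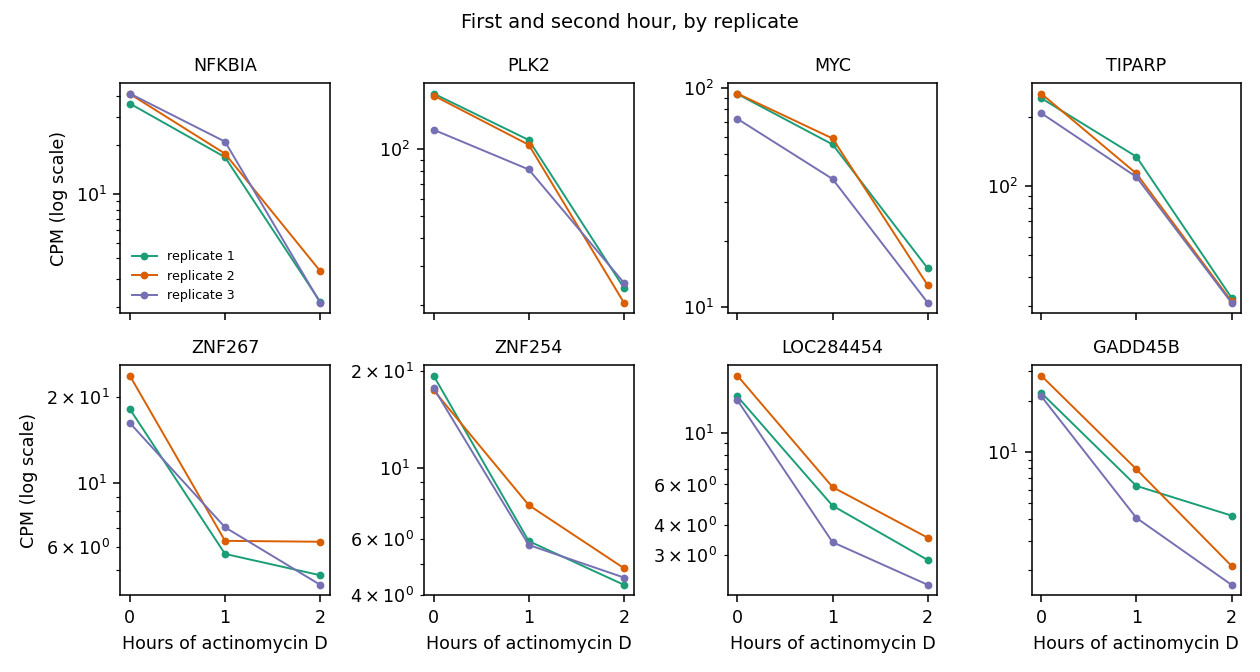
CPM on log axes at 0, 1 and 2 h of actinomycin D in replicates 1, 2 and 3 for 8 genes. The lines of NFKBIA, PLK2, MYC and TIPARP steepen in the second hour, those of ZNF267, ZNF254 and LOC284454 flatten, and the GADD45B difference was not called.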

How the data were processed

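The authors deposited 1 table of raw read counts per gene symbol for 12 libraries. FastQC, STAR and the human build hg19 are named in the submitters' processing notes without versions, while the read counter, annotation and strand setting are not given in the sources used here. The labels' protocols name a stranded mRNA kit.

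Counts were fitted with edgeR 4.0.16 in R 4.3.3 over all 12 libraries (filterByExpr, TMM, time plus replicate number, quasi-likelihood test, Benjamini-Hochberg adjustment over 12775 genes, threshold 0.05). The replicate block is part of the comparison's definition, and deviations of the 0 h and 1 h libraries of a number correlated at 0.532, 0.355 and 0.681, against -0.529 to 0.177 between different numbers. With the block, p-values measure the spread left over all 12 libraries once time and replicate number are fitted. Differences between replicate numbers do not enter that spread, while they do in the fit without the block. No 2 replicates were identical (chi-square per degree of freedom 4.13 to 15.2). SE is the absolute log2 change over the square root of F. Alternatives used DESeq2 1.42.0, other scalings, other filters and libraries left out. On simulated data of this comparison (12625 genes), 1.5-fold falls were called in 78% and rises in 92% of changed genes, 2-fold falls in 100%, and 9 of 194 calls were false. The simulation used the dispersions of the fit and a replicate effect of the form that the block removes. Changes were placed only in genes that were not at low counts. It therefore checks the code, and the false share of the real calls was not measured.

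Named genes were called, averaged at least 5 CPM and moved 1 way in every pair: the 20 largest falls, 12 largest rises, and 6 largest losses and gains in CPM. Up to 3 called members per list, with no limit on level, the 6 largest hour-to-hour differences each way, and FLI1, EWSR1, MYC, GAPDH and ACTB were added. Some genes meeting the rule are not reported here. Members and lists were chosen with earlier results of these data known. Transcript features came from GENCODE 29, matched by symbol for 12561 tested genes (396 by an older symbol). Its build differs from that of the files, so no positions are given.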

Additional observations from a re-analysis of the deposited data

Results flagged for a closer look

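The log2 change of the second hour minus that of the first passed the threshold for 723 genes (edgeR with the replicate block), none of which passed without the block. Listed here are the 6 largest differences each way at a mean of at least 5 CPM at 0 h and 1 h, with MYC and TIPARP added. Those that fell more in the second hour were NFKBIA (-1.77), C15orf39 (-1.52), FKBPL (-1.50), MED26 (-1.46), PLK2 (-1.40), MYC (-1.22) and TIPARP (-0.94), and GABPB1-AS1 (-1.46) rose in the first hour and fell in the second. FKBPL, a small immunophilin-like gene, stood at 7.83 ± 0.499 CPM at 0 h and 6.76 ± 1.14 CPM at 1 h and was not called then (edgeR adjusted p = 0.479), and its libraries at 2 h held 2.25, 2.33 and 1.64 CPM. Those that fell less in the second hour were ZNF267 (1.28), ZNF254 (1.01), LOC284454 (1.01), IQGAP2 (0.99), EIF5A2 (0.69) and KRT10 (0.67). The differences of LOC284454, IQGAP2 and KRT10 were close to the threshold (edgeR adjusted p = 0.0458, 0.0463 and 0.0444). IQGAP2, EIF5A2 and KRT10 were not called at 1 h (edgeR adjusted p = 0.146, 0.0818 and 0.243) and rose from 1 h to 2 h, by 0.58, 0.40 and 0.43 on the log2 scale (edgeR adjusted p = 0.0108, 0.00465 and 0.00447).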

How the results depend on the processing

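Without the replicate block 148 genes were lower and 22 higher, 53 and 3 of them by over 2-fold, and 0 and 0 differed between the hours. DESeq2 with the block gave 355 lower and 141 higher genes, 4 rises of over 2-fold, and 120 and 163 genes that fell more in the second and in the first hour. Library totals gave 654 and 85 for the same 2 counts, and ribosomal scaling 1174 and 7. Only the 6 libraries gave 595 genes higher. With at least 5 CPM on average over the 12 libraries, 22 falls and 2 rises passed 2-fold. Leaving out a replicate or 1 library gave 319 to 808 genes lower, 70 to 424 higher, 59 to 86 falls and 2 to 20 rises of over 2-fold, and 49 to 650 and 4 to 674 genes that fell more in the second and in the first hour. The cause of these differences was not tested. The 4 first-hour counts over all genes stayed within 1.5 times under the other scalings, without a filter and with the GC trend removed. Counts in small lists moved further: with the GC trend removed 10 splicing kinase and SR genes were higher, not 5, and with ribosomal scaling 1 heat shock gene was lower, not 4. The 124 genes examined singly include FKBPL, IQGAP2, EIF5A2, KRT10, EWSR1, GAPDH and ACTB, which had no call at 1 h to lose. Of the others, 61 lost their call without the block, 24 without replicate 2 and 20 without 1 h replicate 3. It was 18 without 0 h replicate 2, 16 in DESeq2, and at most 15 in any other fit. The sign changed for GAPDH, at -0.00201 with the GC trend removed, and the median of the decay factors, at 0.0101 without 0 h replicate 1 (-0.081 to 0.0101 over the fits that leave out libraries). List medians near 0 also changed sign, by less than the spread between pairs, as for respiratory (0.0365) and proteasome genes (0.0165) without replicate 3. No spike-in entered the scaling, so every change is relative, and at 9381855 to 10929000 counts a library, genes under 5 CPM rest on few reads.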
